A study of Mus musculus with 12 samples.

Results

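Solute carriers are the membrane proteins that move sugars, amino acids, lactate, metals, nucleotides and many other solutes into and out of cells and organelles. The genes described here are 142 of the 32051 genes measured in Th9 cells, helper T cells that secrete IL-9. They were chosen by symbol (Slc, a family number, the letter a, and a member number) and by level, with a mean over all 12 libraries of 1 FPKM or more, where FPKM is the fragment count scaled to exon length and to the mapped reads of the library. A further 211 genes of that form had a lower mean, 159 of them below 0.1 FPKM and 45 at 0 in every library, and 45 symbols that begin with Slc but have another form were outside the rule. *Slc25a47* (1.11 FPKM) and *Slc27a6* (1.16) lay just inside the threshold, and *Slc26a11* (0.995) and *Slc18a2* (0.903) just outside it. Because the mean level chose the members, levels are given as a description, and tests compare treatment groups only. Of the 142 genes, 139 encode transporters, while *Slc4a1ap*, *Slc7a6os* and *Slc36a3os* carry the name of a neighbor or binding partner.

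Activated T cells take up glucose through GLUT1 (*Slc2a1*) and GLUT3 (*Slc2a3*) and release lactate through the monocarboxylate transporters MCT1 (*Slc16a1*) and MCT4 (*Slc16a3*). LAT1 (*Slc7a5*) pairs with the CD98 heavy chain (*Slc3a2*) to import large neutral amino acids, ZIP proteins (the Slc39 family) bring zinc into the cytosol, and ZnT proteins (the Slc30 family) remove it. Most of the Slc25 family carries metabolites, nucleotides and phosphate across the inner mitochondrial membrane, though *Slc25a17* is a peroxisomal carrier and *Slc25a46* lies in the outer membrane. By substrate, the members comprised 6 genes of glucose transporter families, 4 lactate or monocarboxylate transporters, 21 amino acid or peptide transporters, 22 metal transporters, 34 Slc25 genes (called mitochondrial carriers here, these exceptions included), 52 genes with other substrates, and the 3 that are not transporters.

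Splenic naive CD4+ T cells of the C57BL/6J strain were stimulated through CD3 and CD28 and driven toward the Th9 fate by IL-4 (10 ng/mL) with TGF-β (1 ng/mL), and RNA was taken on day 4. The 4 groups received DMSO (the vehicle), 10 μM EpA, 5 μM fatostatin, or EpA and fatostatin together, with 3 libraries each. EpA is a cyclic lipopeptide of the surfactin type from an endophytic fungus. The study used fatostatin as an inhibitor of SREBP1, a transcription factor of lipid synthesis, and its reagent list names it an SREBP inhibitor. All cells were polarized and stimulated in culture, so no group represents unpolarized cells or cells in an animal. The study calls its Th9 samples independent, but neither it nor the sample descriptions say whether the 3 replicates came from separate cultures or animals, so the p-values measure only the spread between these libraries, which may be technical.

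The FPKM values imply library totals of 36607303 to 44375791 reads, of which 36019740 to 43656682 were recovered on genes. At this depth 1 read on 1 kb of exon was worth 0.0225 to 0.0273 FPKM, and the member with the fewest reads in any library had 30. The T cell genes *Cd4* (78.1 to 92.2 FPKM) and *Cd3e* (40.0 to 54.2 FPKM) were high in every library. The sum of *Cd4*, *Cd3e*, *Cd3g* and *Lck* was 404.1 to 410.8 FPKM with DMSO, 363.1 to 365.7 with EpA, 398.5 to 410.7 with fatostatin and 349.8 to 354.3 with both compounds. Within this sum the genes split in direction. *Cd4* was higher with EpA (86.18 to 87.11 FPKM) than with DMSO (78.12 to 78.4 FPKM), whereas *Cd3e*, *Cd3g* and *Lck* were lower with EpA. *Trac*, also listed, was not found by symbol. *Il9*, the cytokine that defines these cells, was 51.0 to 57.7 FPKM with DMSO, 619.9 to 652 with EpA, 60.7 to 70.8 with fatostatin and 802.1 to 854.9 with both compounds. The other Th9 genes listed moved less, and *Irf4* was lower with EpA. *Irf4* was 155.2 to 157.9 FPKM with DMSO, 142.7 to 144.8 with EpA, 158.3 to 167.6 with fatostatin and 161.1 to 167.7 with both compounds. *Batf* was 74.33 to 77.19 FPKM with DMSO, 93.1 to 96.72 with EpA, 69.67 to 74.05 with fatostatin and 86.59 to 90.2 with both compounds. Of the marker lists of other cell types, that of CD8 T cells (*Cd8a* and *Cd8b1*) had the highest sum, 6.98 to 10.2 FPKM, against 0.535 to 1.19 FPKM for 3 B cell genes and 0.0533 to 0.377 FPKM for 4 myeloid genes, and *Slc4a1*, the anion exchanger of red cells, was at most 0.00514 FPKM. *Cd8a* was at 1.60 to 1.94 FPKM with DMSO, 0.766 to 0.829 with EpA, 1.44 to 1.60 with fatostatin, and 0.430 to 0.577 with both compounds, whereas the more abundant *Cd8b1* overlapped between all groups, at 7.11 to 7.90, 7.02 to 7.80, 7.11 to 8.61, and 6.40 to 8.18 FPKM. The summed myeloid genes were at 0.0533 to 0.153, 0.184 to 0.294, 0.216 to 0.282, and 0.270 to 0.377 FPKM in the same order of groups. The part of these cell types in the results was not tested. In bulk RNA, fewer cells of a type and less RNA per cell cannot be told apart.

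The median member had a mean of 6.45 FPKM, 47 of the 142 genes reached 10 FPKM, and 4 reached 50. *Slc25a5* (ADP/ATP carrier 2, ENSMUSG00000016319) stood far above the rest with a mean of 628.9 FPKM and held 26.4% to 28.5% of the summed member FPKM of a library. *Slc25a3* (119.9 FPKM) and *Slc25a4* (112.4 FPKM) followed, then *Slc7a5* (64.9 FPKM), *Slc16a3* (48.9 FPKM), *Slc39a1* (45.8 FPKM) and *Slc2a1* (44.5 FPKM). The cystine transporter *Slc7a11* (0.0611 FPKM) and the iron exporter *Slc40a1* (0.000691 FPKM) were not among the members.

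Against DMSO, EpA raised 27 of the 142 genes and lowered 22 at an adjusted p below 0.05 (limma, adjusted over all 13733 genes tested). Of all genes tested, 14.3% were higher and 13.1% lower, 27.4% in total. The 49 members were 34.5% of the 142, and 33.1% of all genes at 1 FPKM or more passed. Fatostatin raised 13 and lowered 13 members (18.3%), where 7.69% of all genes tested were higher and 6.31% lower, 14% in total, and 17.2% of those at 1 FPKM or more passed. The members raised by fatostatin were 8 with only the groups compared in the fit. With both compounds, 41 members were higher and 21 lower than with DMSO (43.7%), where 19.7% of all genes tested were higher and 15.8% lower, 35.5% in total, and 42.3% of those at 1 FPKM or more passed. Set against fatostatin alone, both compounds gave 39 higher and 19 lower members (40.8%), where 16.2% of all genes tested were higher and 13.3% lower, 29.5% in total, and 35.6% of those at 1 FPKM or more passed. Set against EpA alone, they gave 20 higher and 8 lower members (19.7%), where 9.22% of all genes tested were higher and 6.79% lower, 16% in total, and 19.6% of those at 1 FPKM or more passed. In all of these comparisons except that of both compounds with fatostatin, the share of members that passed was within 2 percentage points of the share at 1 FPKM or more, so most of these shares are those of genes at a like level. The median log2 difference of the 142 genes was near 0 with EpA (0.00197) and with fatostatin (-0.0142), as was that of all genes tested (0.0023 and 0.00535). Over the 5 comparisons, 85 members passed at least once and 57 did not.

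Most changes were small. Among members that passed, the median absolute log2 difference was 0.19 with EpA and 0.21 with fatostatin, and 140 of 142 members differed by less than 1.5-fold in each of these comparisons. Genes past both the adjusted p and a 1.5-fold change were 2 with EpA (*Slc4a11* higher, *Slc36a3os* lower), where 3.38% of all genes tested passed both. They were 2 with fatostatin (*Slc4a11* and *Slc19a2*, against 1.86%), 5 with both compounds against DMSO (*Slc4a11*, *Slc19a2*, *Slc39a8*, *Slc12a7* and *Slc27a6*, against 5.64%), 3 with both against EpA (*Slc4a11*, *Slc19a2* and *Slc27a6*, against 1.99%), and 2 with both against fatostatin (*Slc27a6* higher, *Slc36a3os* lower, against 3.75%). With a pseudocount of 1 FPKM they were 0 with EpA, 3 with both against DMSO and 1 with both against fatostatin. The count of members lowered by EpA was 14 without DMSO replicate 2, without EpA replicate 2, or without EpA replicate 3. For both compounds against fatostatin, the count of lower members was 12 without replicate 2 and 9 without replicate 3 of the group with both compounds. *Slc27a6* reached 1 FPKM only through its level with both compounds (its mean over the other groups was 0.944 FPKM), so its passing in comparisons with that group follows in part from how members were chosen. Without it, 40 members were higher with both compounds than with DMSO, 19 than with EpA and 38 than with fatostatin, of which 4, 2 and 0 were also past 1.5-fold.

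**Figure D1:**
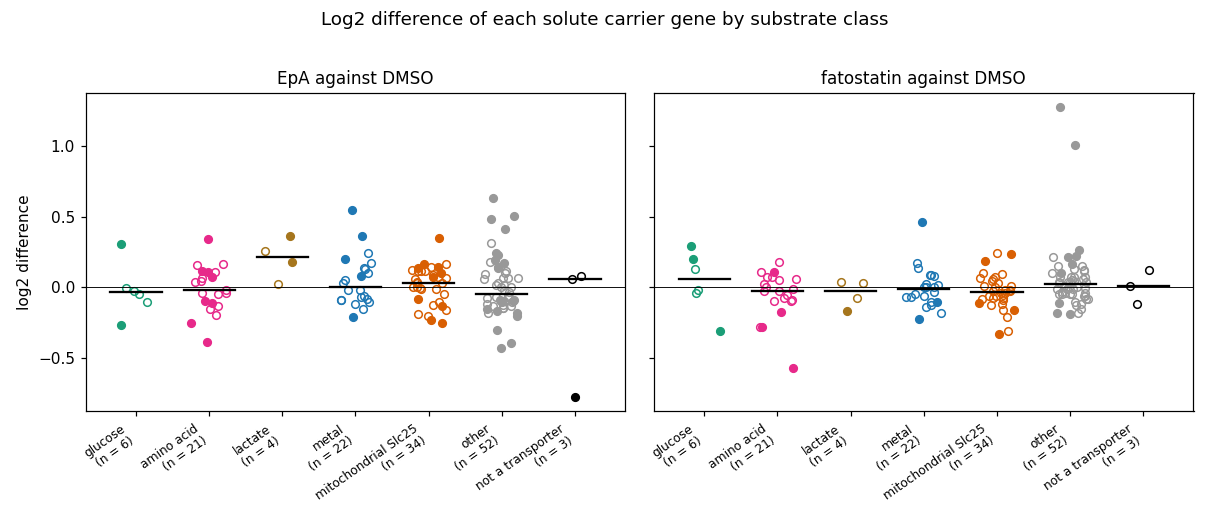
Log2 difference (vertical axis, on the log2(FPKM + 0.1) scale) of each of the 142 genes by substrate class for EpA against DMSO (left) and fatostatin against DMSO (right). Filled points passed at an adjusted p below 0.05, open points did not, and the bar is the class median. Both lactate transporters that passed with EpA are above 0, and the 2 highest points with fatostatin, at 1.27 and 1.00, are *Slc4a11* and *Slc19a2*.

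Among the glucose transporter families, EpA raised 1 gene and lowered 1 of 6 (33.3% called, as against 33.1% of all genes at 1 FPKM or more), and fatostatin raised 2 and lowered 1 (50% called, as against 17.2%). *Slc2a1* (ENSMUSG00000028645, chr4:119108711-119137983, plus strand), the facilitative transporter GLUT1, measured 39.9, 38.5 and 40.5 FPKM with DMSO and 48.4, 48.7 and 49.9 FPKM with EpA. It measured 38.3, 39.2 and 39.7 FPKM with fatostatin and 50.6, 51.6 and 48.9 FPKM with both compounds. Every library with EpA lay above every library without it. The log2 difference was 0.31 for EpA against DMSO (SE 0.0265, limma adjusted p = 8.76e-06) and 0.36 for EpA in the presence of fatostatin (SE 0.0265, limma adjusted p = 1.99e-06), whereas fatostatin alone left a difference of -0.02 that did not pass (limma adjusted p = 0.707).

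*Slc2a3* (ENSMUSG00000003153), the high-affinity transporter GLUT3, had another profile. It measured 21.5, 21.9 and 22.6 FPKM with DMSO and 21.7, 22.2 and 21.9 FPKM with EpA, which overlapped. Fatostatin gave 25.4, 25.9 and 24.7 FPKM, and both compounds gave 28.5, 28.4 and 28.4 FPKM, with the combined group the highest. Fatostatin raised it by 0.20 on the log2 scale (SE 0.0245, limma adjusted p = 0.00021), and by 0.37 in the presence of EpA (limma adjusted p = 1.76e-06). EpA raised it by 0.17 in the presence of fatostatin (limma adjusted p = 0.000405) and not alone (limma adjusted p = 0.894). Those effects of EpA differed by 0.17 (95% confidence interval 0.0953 to 0.248), which did not pass (limma adjusted p = 0.234).

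*Slc2a6*, the intracellular hexose transporter GLUT6, fell with fatostatin from 19.3 ± 0.147 to 15.6 ± 1.10 FPKM (mean ± SD, n = 3 each, log2 difference -0.31, limma adjusted p = 0.00126), and the groups did not overlap. *Slc2a9*, the urate transporter GLUT9, was 2.51 ± 0.0349 FPKM with DMSO, 2.07 ± 0.0522 FPKM with EpA, and 3.10 ± 0.301 FPKM with fatostatin (SD, n = 3), lower with EpA (limma adjusted p = 0.0187) and higher with fatostatin (limma adjusted p = 0.0209). The first call was lost without DMSO replicate 3 or EpA replicate 2 or 3 (limma adjusted p = 0.0511 to 0.0579), and the second without any 1 of the DMSO libraries or without fatostatin replicate 1, or with only the groups compared in the fit (limma adjusted p = 0.0512 to 0.0727). The sugar transporter *Slc50a1* (SWEET1) stayed between 20.4 and 23.8 FPKM in the 12 libraries and passed in none of the 5 comparisons.

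Among the 4 lactate and monocarboxylate transporters, EpA raised 2 (50% called, as against 33.1% of all genes at 1 FPKM or more), and fatostatin lowered 1 (25% called, as against 17.2%). *Slc16a1* and *Slc16a3* were higher in every library with EpA than in every library without it. *Slc16a3* (ENSMUSG00000025161, chr11:120948480-120960868, plus strand), the lactate exporter MCT4, measured 43.8, 42.4 and 44.8 FPKM with DMSO and 56.1, 55.3 and 56.8 FPKM with EpA. The fatostatin libraries measured 40.9, 41.9 and 41.4 FPKM, and those with both compounds 52.7, 54.2 and 56.7 FPKM. The log2 difference was 0.36 for EpA against DMSO (SE 0.0281, limma adjusted p = 4.06e-06) and 0.40 for EpA in the presence of fatostatin (limma adjusted p = 1.66e-06). *Slc16a1* (ENSMUSG00000032902, chr3:104638668-104658462, plus strand), which carries lactate and pyruvate as MCT1, measured 28.3, 27.3 and 26.6 FPKM with DMSO, 30.8, 30.8 and 31.6 FPKM with EpA, 27.5, 27.7 and 28.5 FPKM with fatostatin, and 29.8, 30.9 and 30.6 FPKM with both. Its rise was smaller, by 0.18 with EpA (SE 0.0268, limma adjusted p = 0.000469) and 0.12 in the presence of fatostatin (limma adjusted p = 0.00511). *Slc16a6* (MCT7) was 8.30 ± 0.261 FPKM with DMSO and 7.39 ± 0.359 FPKM with fatostatin (SD, n = 3, limma adjusted p = 0.0186), a call lost without DMSO replicate 3 or fatostatin replicate 1 or 3, or with only the groups compared in the fit (limma adjusted p = 0.0666 to 0.0756). Since 21.5% of the *Slc16a6* exon bases overlap *Amz2* on the opposite strand and the strand setting of the counting is not given in the sources used here, its value is uncertain. *Slc16a13* (MCT13) was 2.09 ± 0.0967 FPKM with DMSO and 2.51 ± 0.108 FPKM with EpA (SD, n = 3) and did not pass with EpA (limma adjusted p = 0.209) or with fatostatin (limma adjusted p = 0.902).

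The upstream sequences of *Slc2a1*, *Slc16a3* and *Slc16a1*, 3 genes that moved together with EpA, and of *Slc25a1*, which fell with fatostatin (below), are shown from RefSeq (GRCm38.p6), 5′ to 3′ on the strand of the gene and ending at or before the start of the RefSeq transcript, which can lie inside the gene bounds given above. Capitals mark ACGTG or its reverse complement CACGT, the core letters of sites for hypoxia-inducible factor, and a run of CACGTG, an E-box, counts as a match on both strands. The intervals are chr4:119108495-119108714 (plus strand) for *Slc2a1*, chr11:120948817-120949057 (plus strand) for *Slc16a3*, chr3:104638414-104638663 (plus strand) for *Slc16a1*, and chr16:17928220-17928469 (minus strand) for *Slc25a1*.
Slc2a1: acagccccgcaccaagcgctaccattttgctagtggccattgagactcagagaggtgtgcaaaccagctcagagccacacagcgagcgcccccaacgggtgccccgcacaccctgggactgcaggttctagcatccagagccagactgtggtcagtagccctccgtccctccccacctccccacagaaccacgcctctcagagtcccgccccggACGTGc
Slc16a3: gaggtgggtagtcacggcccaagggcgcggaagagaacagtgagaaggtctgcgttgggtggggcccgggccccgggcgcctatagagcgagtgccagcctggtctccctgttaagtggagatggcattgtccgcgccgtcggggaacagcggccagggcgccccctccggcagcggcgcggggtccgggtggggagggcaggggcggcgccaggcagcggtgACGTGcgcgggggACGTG
Slc16a1: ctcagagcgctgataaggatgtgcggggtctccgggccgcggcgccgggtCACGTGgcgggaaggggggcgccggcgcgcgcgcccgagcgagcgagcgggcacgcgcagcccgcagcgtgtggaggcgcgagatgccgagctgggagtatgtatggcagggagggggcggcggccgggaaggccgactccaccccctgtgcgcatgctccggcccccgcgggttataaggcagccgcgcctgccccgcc
Slc25a1: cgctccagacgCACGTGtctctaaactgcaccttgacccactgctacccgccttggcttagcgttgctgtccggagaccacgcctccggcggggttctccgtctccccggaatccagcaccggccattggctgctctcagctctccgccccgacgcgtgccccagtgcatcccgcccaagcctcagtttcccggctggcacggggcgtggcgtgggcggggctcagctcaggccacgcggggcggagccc

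In *Slc2a1* the letters began 36 bases before the transcript start, and in *Slc16a3* at 27 and at 14 bases before it. In *Slc16a1* and *Slc25a1* the match was the palindrome CACGTG, 200 and 239 bases before the start. Over the 250 bases before the start, of which the last are not shown for *Slc2a1* and *Slc16a3*, ACGTG was present on either strand in 16.6% of the 32817 RefSeq promoters and in 36 (25.9%) of the 139 promoters listed for 105 of the members. CACGTG, which contains ACGTG, was present in 6.02% of all promoters and 22 (15.8%) of those of the members. TCACNCCAC, the letters of a sterol regulatory element with N for any base, was present in 1.05% of all promoters and in 3 (2.16%) of the 139. Of the other motifs searched on both strands, the metal response element TGCACNC was in 10.4% of all promoters and 17 (12.2%) of those of the members, the AP-1 site TGANTCA in 6.75% and 8 (5.76%), and the amino acid response element TGATGNAA in 3.45% and 3 (2.16%). The sequences shown all hold ACGTG, and those of other members that changed are not shown. The *Slc25a1* sequence shown does not contain TCACNCCAC on either strand. These matches describe letters in a window and not bound sites, and whether any such factor acts on these genes was not tested.

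**Figure D2:**
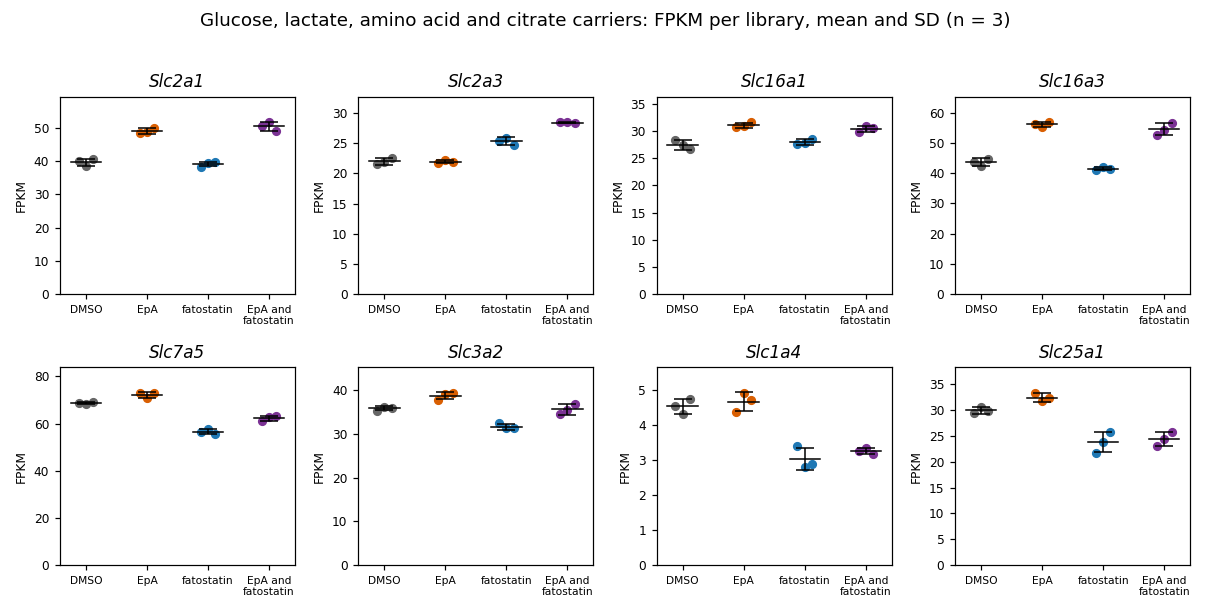
FPKM per library (vertical axes, linear from 0) of 8 transporters of glucose, lactate, amino acids and citrate in the 4 groups, with points for the 3 libraries and bars for the mean and SD. *Slc2a1*, *Slc16a1* and *Slc16a3* are higher in the groups with EpA, whereas *Slc7a5*, *Slc1a4* and *Slc25a1* are lower in the groups with fatostatin than in the groups without it.

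The 21 amino acid and peptide transporters split in direction. EpA raised 4 and lowered 4 (38.1% called, as against 33.1% of all genes at 1 FPKM or more), and fatostatin raised 1 and lowered 3 (19% called, as against 17.2%). *Slc7a5* (ENSMUSG00000040010, chr8:121881150-121907694, minus strand), the LAT1 exchanger of large neutral amino acids, measured 68.5, 68.3 and 69.3 FPKM with DMSO and 56.5, 57.5 and 55.6 FPKM with fatostatin. It measured 72.8, 70.8 and 72.8 FPKM with EpA and 61.1, 62.7 and 63.0 FPKM with both compounds, so that no group overlapped another. Fatostatin lowered it by a log2 difference of -0.28 alone (SE 0.0197, limma adjusted p = 3.06e-06) and -0.21 in the presence of EpA (limma adjusted p = 2.48e-05). EpA raised it by 0.14 in the presence of fatostatin (limma adjusted p = 0.000301). The rise with EpA alone, 0.07 (limma adjusted p = 0.0202), was lost without DMSO replicate 1 or 2 or EpA replicate 1 or 3, or with no trend (limma adjusted p = 0.0583 to 0.0723).

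*Slc3a2* (ENSMUSG00000010095), the CD98 heavy chain that LAT1 needs at the cell surface, followed the same order of groups. It measured 35.4, 36.3 and 35.9 FPKM with DMSO, 37.9, 39.1 and 39.3 FPKM with EpA, 32.5, 31.3 and 31.3 FPKM with fatostatin, and 34.6, 35.4 and 36.9 FPKM with both. It fell with fatostatin (log2 difference -0.18, limma adjusted p = 0.00115) and rose with EpA (0.11, limma adjusted p = 0.00947), and the libraries with both compounds overlapped those with DMSO. *Slc1a4* (ENSMUSG00000020142), the neutral amino acid exchanger ASCT1, had the lowest log2 difference with fatostatin among the members, from 4.56, 4.33 and 4.74 FPKM with DMSO to 3.40, 2.82 and 2.88 FPKM with fatostatin. It was 4.38, 4.92 and 4.71 FPKM with EpA and 3.27, 3.35 and 3.16 FPKM with both, and all libraries with fatostatin lay below all libraries without it. The log2 difference was -0.57 for fatostatin alone (SE 0.0718, limma adjusted p = 0.000266) and -0.50 in the presence of EpA (limma adjusted p = 0.000671), while that of EpA alone (0.04) did not pass (limma adjusted p = 0.748).

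*Slc15a3*, a lysosomal transporter of peptides and histidine, rose with EpA from 13.5, 13.6 and 14.5 FPKM to 17.6, 17.2 and 17.9 FPKM (log2 difference 0.34, limma adjusted p = 2.15e-05), although 28.1% of its exon bases overlap *Tmem132a* on the opposite strand. *Slc36a4* (PAT4, of the proton-assisted amino acid transporters) fell with EpA from 4.79, 5.33 and 4.23 FPKM to 3.46, 3.70 and 3.71 FPKM (log2 difference -0.39, limma adjusted p = 0.00348). The sodium-coupled transporter *Slc38a1* (SNAT1) fell by 0.11 on the log2 scale with EpA, from 19.1 ± 0.495 to 17.7 ± 0.0424 FPKM (SD, n = 3, limma adjusted p = 0.0101). *Slc43a2* (LAT4, an exporter of neutral amino acids), named after its values were seen, was 5.73 ± 0.233 FPKM with DMSO and 4.79 ± 0.0660 FPKM with EpA (SD, n = 3, log2 difference -0.25, limma adjusted p = 0.00117), and was also lowered by EpA in the presence of fatostatin (-0.29, limma adjusted p = 0.00042).

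The glutamine transporter *Slc1a5* (ASCT2) was 20.2 ± 0.637 FPKM with DMSO and 18.9 ± 0.432 FPKM with EpA (SD, n = 3, limma adjusted p = 0.0271), a call lost without DMSO replicate 1 or 2 or EpA replicate 1, or with only the groups compared in the fit (limma adjusted p = 0.0597 to 0.104). The taurine transporter *Slc6a6* did not pass with EpA alone but was higher with both compounds than with fatostatin, at 30.3 ± 1.10 against 27.9 ± 0.558 FPKM (SD, n = 3, limma adjusted p = 0.00592). *Slc7a1* (CAT-1), which takes up arginine and lysine, had group means of 12.5 to 13.3 FPKM, and *Slc38a2* (SNAT2) of 22.1 to 23.2 FPKM, and neither passed in any of the 5 comparisons.

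Of the 22 metal transporters, EpA raised 4 and lowered 1 (22.7% called, below the 33.1% of all genes at 1 FPKM or more). Fatostatin raised 1 and lowered 2 of them (13.6% called, as against 17.2%), and EpA in the presence of fatostatin raised 8 and lowered 0 (36.4% called, as against 35.6%). *Slc39a8* (ENSMUSG00000053897, chr3:135825279-135888572, plus strand), the ZIP8 importer of zinc, manganese and iron, measured 4.22, 4.08 and 4.51 FPKM with DMSO and 6.26, 6.26 and 6.35 FPKM with EpA. The fatostatin libraries measured 4.60, 4.76 and 4.28 FPKM, and those with both compounds 7.07, 6.77 and 6.42 FPKM. Each library with EpA exceeded each library without it, by a log2 difference of 0.55 for EpA against DMSO (SE 0.0524, limma adjusted p = 1.75e-05) and 0.56 in the presence of fatostatin (limma adjusted p = 1.29e-05).

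*Slc39a10* (ENSMUSG00000025986), the zinc importer ZIP10, measured 7.78 to 8.46 FPKM with DMSO, 10.6, 9.86 and 10.7 FPKM with EpA, 8.12, 7.90 and 8.21 FPKM with fatostatin, and 12.6, 11.3 and 11.8 FPKM with both compounds. DMSO and fatostatin overlapped, and the group with both compounds was the highest. EpA raised it by 0.36 alone (SE 0.0482, limma adjusted p = 0.000212) and by 0.55 in the presence of fatostatin (limma adjusted p = 7.41e-06), and the difference of 0.19 between these effects did not pass (95% confidence interval 0.0423 to 0.342, limma adjusted p = 0.502). *Slc30a4* (ZnT4), which loads zinc into vesicles, went in opposite directions with the compounds, from 7.24, 7.17 and 6.91 FPKM with DMSO to 8.43, 7.81 and 8.31 FPKM with EpA (log2 difference 0.20, limma adjusted p = 0.00635) and 6.38, 5.92 and 5.93 FPKM with fatostatin (-0.22, limma adjusted p = 0.00665).

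The most abundant metal transporter, the zinc importer *Slc39a1* (ZIP1), was 45.5 ± 0.435 FPKM with DMSO and 42.4 ± 0.826 FPKM with fatostatin (SD, n = 3, log2 difference -0.10, limma adjusted p = 0.0109). It was 48.1 ± 1.25 FPKM with EpA (limma adjusted p = 0.0201), and that call was lost without DMSO replicate 1 or 2 or EpA replicate 1 or 2, with no trend, or with voom (limma adjusted p = 0.0506 to 0.0777). *Slc31a2* (CTR2, of the copper transporter family) was higher with fatostatin, at 3.88, 3.39 and 4.02 FPKM against 2.22, 3.08 and 2.86 FPKM with DMSO (log2 difference 0.46, limma adjusted p = 0.0216), a call lost without DMSO replicate 1 or fatostatin replicate 1 or 3, or with only the groups compared in the fit (limma adjusted p = 0.0642 to 0.0778). The copper importer *Slc31a1* (CTR1, 14.2 to 15.5 FPKM in group means) passed only for both compounds against fatostatin (limma adjusted p = 0.034), and did not with median-ratio scaling, with only the groups compared in the fit, with no trend, with the replicate block, without any 1 of the fatostatin libraries, or without replicate 1 or 2 of the group with both (limma adjusted p = 0.0518 to 0.121). The zinc importer *Slc39a6* (a mean of 24.1 FPKM over the 12 libraries), the divalent metal transporter *Slc11a2* (5.30 FPKM), and the zinc exporter *Slc30a1* (1.83 FPKM) passed in none of the 5 comparisons.

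Among the 34 mitochondrial carriers, EpA raised 6 and lowered 4 (29.4% called, as against 33.1% of all genes at 1 FPKM or more), and fatostatin raised 2 and lowered 3 (14.7% called, as against 17.2%). *Slc25a5*, the most abundant member, did not pass in any comparison, with group means of 618 to 634 FPKM and a log2 difference of -0.01 with EpA (limma adjusted p = 0.726). *Slc25a4*, the other abundant ADP/ATP carrier, measured 109, 108 and 112 FPKM with DMSO and 122, 121 and 119 FPKM with EpA, without overlap (log2 difference 0.14, SE 0.0193, limma adjusted p = 0.000354). EpA also raised it in the presence of fatostatin (0.12, limma adjusted p = 0.000818). The phosphate carrier *Slc25a3* went from 116 ± 1.45 to 122 ± 1.87 FPKM with EpA (SD, n = 3, limma adjusted p = 0.0122), a call lost without EpA replicate 1 (limma adjusted p = 0.0542).

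*Slc25a1* (ENSMUSG00000003528, chr16:17925223-17928219, minus strand), which exports citrate from mitochondria for fatty acid and sterol synthesis, measured 29.4, 30.6 and 29.8 FPKM with DMSO and 33.3, 31.7 and 32.3 FPKM with EpA. It measured 21.8, 23.8 and 25.7 FPKM with fatostatin and 23.1, 24.4 and 25.7 FPKM with both compounds, so that all 6 libraries with fatostatin lay below the 6 without it. Fatostatin lowered it by a log2 difference of -0.33 alone (SE 0.0538, limma adjusted p = 0.00154) and -0.41 in the presence of EpA (limma adjusted p = 0.000373). The difference of 0.12 with EpA alone, whose libraries did not overlap those with DMSO, did not pass (limma adjusted p = 0.143), though it did with only the groups compared in the fit (limma adjusted p = 0.0202).

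*Slc25a40*, a mitochondrial glutathione transporter, was lower with EpA, at 3.77, 3.77 and 3.78 FPKM against 4.48, 4.58 and 4.47 FPKM with DMSO (log2 difference -0.25, limma adjusted p = 0.000392), and higher with fatostatin, at 5.25, 5.25 and 4.96 FPKM (0.19, limma adjusted p = 0.00556). *Slc25a36*, a carrier of pyrimidine nucleotides, rose with fatostatin from 8.42 ± 0.184 to 9.95 ± 0.692 FPKM (SD, n = 3, limma adjusted p = 0.00549) and was 11.3 ± 0.160 FPKM with both compounds. *Slc25a33*, its close relative, was 1.23 ± 0.122 FPKM with DMSO and 1.59 ± 0.163 FPKM with EpA (SD, n = 3, limma adjusted p = 0.0193), a call lost without DMSO replicate 1 or 2 or EpA replicate 2, with only the groups compared in the fit, or with voom (limma adjusted p = 0.0587 to 0.106), from 78 to 139 reads per library. The iron carrier mitoferrin-1, *Slc25a37*, was 7.50 ± 0.192 FPKM with DMSO and 8.41 ± 0.217 FPKM with EpA (SD, n = 3, limma adjusted p = 0.0155), a call lost without DMSO replicate 3 or EpA replicate 2 (limma adjusted p = 0.0565 and 0.0597). *Slc25a12*, the aspartate and glutamate carrier aralar, named after its values were seen, fell with EpA from 28.9 ± 0.774 to 24.6 ± 0.690 FPKM (SD, n = 3, log2 difference -0.23, limma adjusted p = 0.00025).

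The largest differences lay outside these classes. *Slc4a11* (ENSMUSG00000074796, chr2:130684113-130697519, minus strand), a member of the bicarbonate transporter family by sequence, measured 3.37, 3.22 and 3.60 FPKM with DMSO and 5.36, 5.40 and 5.19 FPKM with EpA. It measured 8.21, 8.43 and 8.37 FPKM with fatostatin and 11.3, 11.2 and 11.2 FPKM with both compounds. The 4 groups were fully separated. It rose 1.55-fold with EpA (log2 difference 0.63, SE 0.0402, limma adjusted p = 8.85e-07), 2.42-fold with fatostatin (1.27, limma adjusted p = 5.18e-09), and 3.25-fold with both (1.70, limma adjusted p = 1.55e-10). Over the 22 settings run, its log2 difference with EpA was 0.5246 to 0.6757, the lowest being under 1.5-fold. The effect of EpA was 0.43 in the presence of fatostatin, and the difference of -0.21 from its effect alone did not pass (95% confidence interval -0.331 to -0.0813, limma adjusted p = 0.364).

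*Slc19a2* (ENSMUSG00000040918, chr1:164249046-164265385, plus strand), the thiamine transporter THTR1, measured 8.48, 8.30 and 8.41 FPKM with DMSO, 10.8, 11.9 and 12.8 FPKM with EpA, 17.8, 15.8 and 17.4 FPKM with fatostatin, and 19.4, 19.0 and 19.9 FPKM with both compounds. Each group lay above the one before. Fatostatin raised it 2.01-fold alone (log2 difference 1.00, SE 0.0575, limma adjusted p = 5.38e-07) and 1.64-fold in the presence of EpA (0.72, limma adjusted p = 8.11e-06), and EpA raised it 1.40-fold alone (0.49, limma adjusted p = 9.14e-05). With fatostatin present, the difference of 0.20 between both compounds and fatostatin (limma adjusted p = 0.0238) was lost without fatostatin replicate 2 or replicate 1 or 3 of the group with both (limma adjusted p = 0.0548 to 0.0932). The difference of -0.29 between the effects of EpA did not pass (95% confidence interval -0.467 to -0.11, limma adjusted p = 0.369).

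*Slc12a7*, the potassium and chloride cotransporter KCC4, measured 2.01, 2.23 and 2.22 FPKM with DMSO, 2.92, 2.92 and 2.85 FPKM with EpA, 2.29, 2.42 and 2.50 FPKM with fatostatin, and 3.57, 3.25 and 3.52 FPKM with both. EpA raised it by 0.41 alone (limma adjusted p = 0.000422) and by 0.50 in the presence of fatostatin (limma adjusted p = 8.73e-05), and no group overlapped another. *Slc49a4*, a lysosomal transporter also called *Dirc2*, rose with EpA from 2.62, 2.89 and 2.66 FPKM to 3.71, 3.91 and 4.11 FPKM (log2 difference 0.51, limma adjusted p = 0.000228).

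*Slc27a6* (ENSMUSG00000024600), a fatty acid transport protein and the member with the next to lowest mean, was at 0.748, 0.916 and 0.953 FPKM with DMSO, 1.05, 1.30 and 0.969 FPKM with EpA, 0.889, 1.02 and 0.646 FPKM with fatostatin, and 1.87, 1.86 and 1.74 FPKM with both compounds. Only the group with both stood apart from the other groups. On the log2(FPKM + 0.1) scale, which understates the fold of a low gene, the group with both was 1.99-fold that with DMSO. It was 2.05-fold that with fatostatin and 1.60-fold that with EpA on this scale, on 65 to 198 reads per library. Since that group carried the gene past 1 FPKM, these values are a description with no test. The RNA *Slc36a3os*, transcribed opposite to *Slc36a3* and no transporter, was at 3.31, 3.29 and 4.29 FPKM with DMSO and 1.45, 2.75 and 2.18 FPKM with EpA (log2 difference -0.78, limma adjusted p = 0.0293), from 30 to 117 reads. That call was lost without any 1 of the DMSO libraries or EpA replicate 1 or 3, with all genes above 0 in the fit, or with no trend (limma adjusted p = 0.0504 to 0.108). In the presence of fatostatin the difference was -0.72 (limma adjusted p = 0.0397), lost without DMSO replicate 1 or 2, EpA replicate 3, fatostatin replicate 3, or any 1 library with both compounds, with all genes above 0 in the fit, or with no trend (limma adjusted p = 0.0506 to 0.144).

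Outside the rule for named genes, 3 more members with other substrates were chosen after their values were seen. *Slc28a2*, a transporter of purine nucleosides, fell with EpA from 8.37 ± 0.183 to 6.34 ± 0.195 FPKM (SD, n = 3, log2 difference -0.40, limma adjusted p = 8.3e-06) and rose with fatostatin to 9.77 ± 0.285 FPKM (0.22, limma adjusted p = 0.00121). *Slc22a15*, of the organic cation transporter family, fell with EpA from 1.73 ± 0.0341 to 1.25 ± 0.00645 FPKM (SD, n = 3, log2 difference -0.43, limma adjusted p = 0.000559). The sodium bicarbonate cotransporter *Slc4a7* rose with EpA from 7.83 ± 0.243 to 9.26 ± 0.0999 FPKM (SD, n = 3, log2 difference 0.24, limma adjusted p = 0.000522).

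**Figure D3:**
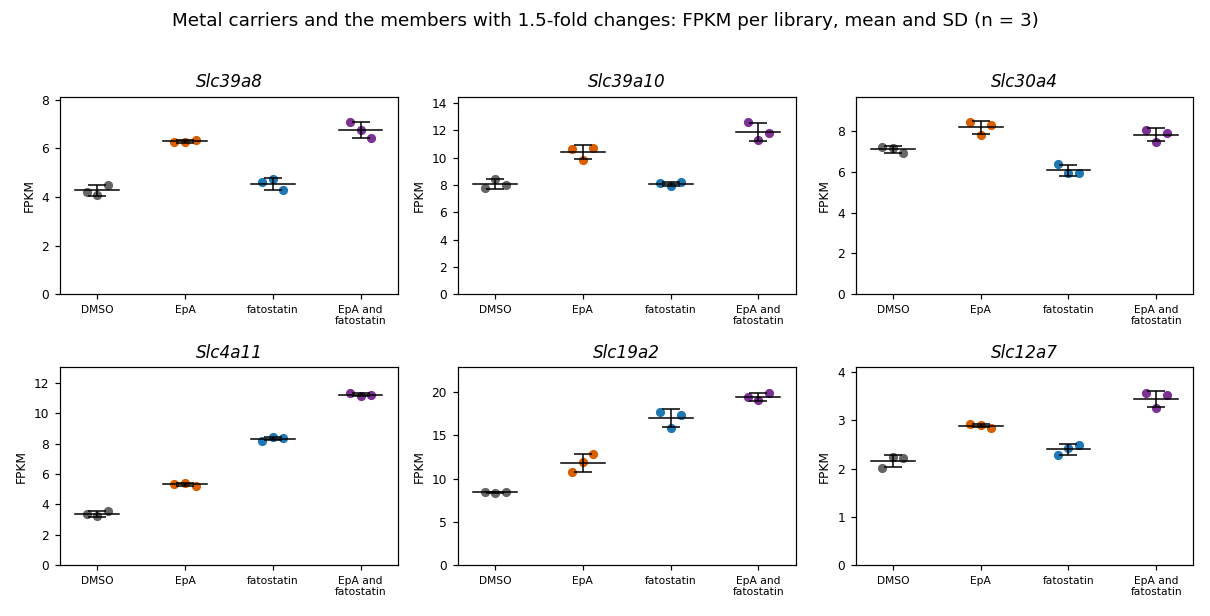
FPKM per library (vertical axes, linear from 0) of 3 zinc transporters and of 3 genes with a change of at least 1.5-fold in some comparison, in the 4 groups, with points for the 3 libraries and bars for the mean and SD. *Slc39a8* and *Slc39a10* are higher in both groups with EpA, and *Slc4a11* climbs from 3.39 FPKM with DMSO to 11.2 FPKM with both compounds.

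The effect of each compound could be measured again in the presence of the other, in libraries that the first measurement did not use, although the spread was estimated in 1 fit. Of the 49 members that passed for EpA against DMSO, 47 (95.9%) had the same sign for both compounds against fatostatin, and 41 passed again in the same direction, which is 83.7% of the 49 and 70.7% of the 58 that passed there. Over all genes at 1 FPKM or more, 97.6% of those that passed for EpA had the same sign and 75.6% passed again, 70.4% of those that passed there. Pearson's r between the log2 differences was 0.859 across the 142 members and 0.724 across those 10298 genes, which are not independent replicates. Of the 26 members that passed for fatostatin against DMSO, 25 kept their sign for both compounds against EpA and 15 passed again in the same direction (57.7% of the 26 and 53.6% of the 28), where 95.9% of all such genes at 1 FPKM or more kept their sign and 67.7% passed again. No member passed in opposite directions in either pair of comparisons, and 1 (EpA) and 2 (fatostatin) of all genes at 1 FPKM or more did. No member passed the test of whether EpA acted differently once fatostatin was present (limma, 0 of 142, where 0.0437% of all genes tested passed, and 0 with voom on recovered reads). At an unadjusted limma p below 0.05 there were 18 members (12.7%), where 7.89% of all genes tested and 8.8% of those at 1 FPKM or more passed.

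**Figure D4:**
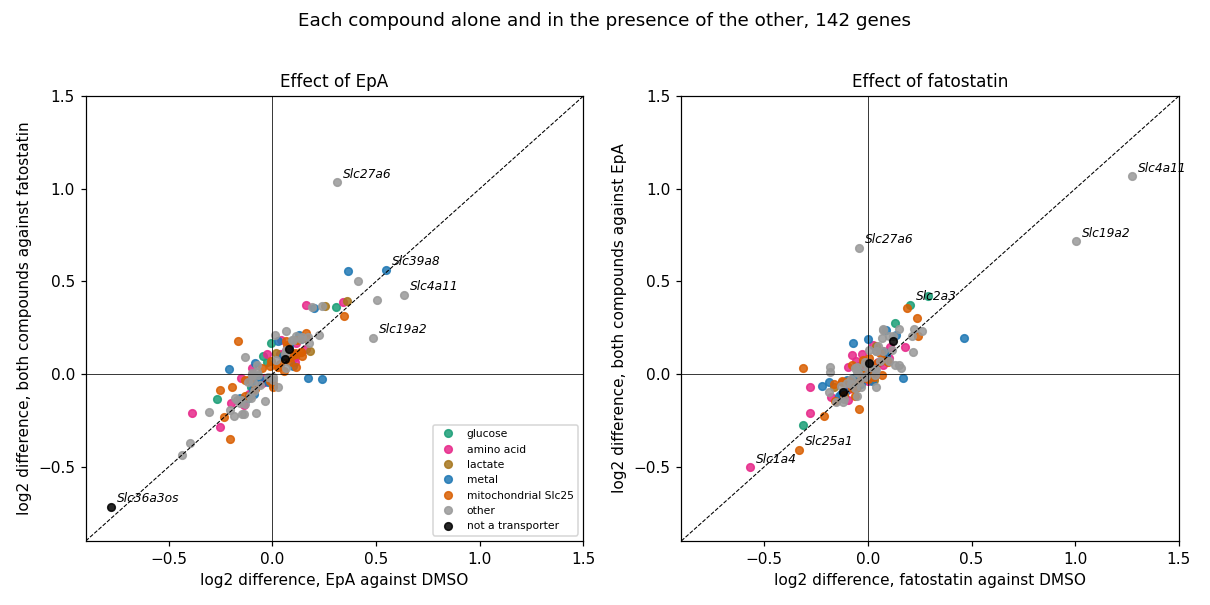
Log2 difference of each of the 142 genes for a compound alone (horizontal axis) and in the presence of the other compound (vertical axis), on the log2(FPKM + 0.1) scale, for EpA (left) and fatostatin (right), colored by substrate class, with a dashed line of equal effects. *Slc27a6* stands above the line in both panels, at 0.31 and 1.03 for EpA, and *Slc19a2* below it, at 1.00 and 0.72 for fatostatin.

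Partners and regulators of these transporters that do not carry an Slc name were read from a list of 24 genes. The list was drawn up with earlier results of these data known, so its counts are a description. EpA raised 12 and lowered 1 of them, where 14.3% of all genes tested were higher and 13.1% lower. Fatostatin raised 2 and lowered 4 (7.69% and 6.31% of all genes), and EpA in the presence of fatostatin raised 11 and lowered 3 (16.2% and 13.3% of all genes). Of all genes at 1 FPKM or more, 33.1% passed with EpA, 17.2% with fatostatin and 35.6% with EpA in the presence of fatostatin. With EpA, *Hif1a*, which encodes the oxygen-regulated subunit of hypoxia-inducible factor, went from 92.8 ± 0.463 to 122 ± 1.16 FPKM (SD, n = 3, log2 difference 0.40, limma adjusted p = 1.3e-07). Hexokinase 2, which traps imported glucose, went from 27.5 ± 0.410 to 37.3 ± 0.504 FPKM (*Hk2*, log2 difference 0.44, limma adjusted p = 2e-06), and the lactate dehydrogenase gene *Ldha* from 813 ± 11.3 to 888 ± 8.28 FPKM (0.13, limma adjusted p = 0.000113). The transferrin receptor *Tfrc* rose from 150 ± 1.65 to 197 ± 1.45 FPKM (0.40, limma adjusted p = 5.2e-07) and the metallothionein *Mt1*, which binds zinc, from 49.9 ± 0.761 to 65.2 ± 1.45 FPKM (0.38, limma adjusted p = 3.8e-06). EpA also raised *Atf4*, the transcription factor of the amino acid response, from 97.3 ± 1.71 to 111 ± 0.883 FPKM (0.19, limma adjusted p = 7.2e-05), and its target *Asns*, asparagine synthetase, from 30.1 ± 0.285 to 33.4 ± 0.278 FPKM (0.15, limma adjusted p = 0.000594). The gene that EpA lowered was *Mtch1*, from 26.2 ± 1.32 to 21.5 ± 0.650 FPKM (-0.28, limma adjusted p = 0.000207).

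With fatostatin, *Atf4* fell from 97.3 ± 1.71 to 76.9 ± 1.31 FPKM (SD, n = 3, log2 difference -0.34, limma adjusted p = 1.4e-06), and *Asns* from 30.1 ± 0.285 to 25.3 ± 0.304 FPKM (-0.25, limma adjusted p = 2.4e-05). *Emb* (embigin), which escorts monocarboxylate transporters to the membrane, was 14.6 ± 0.288 FPKM with DMSO and lower with fatostatin (log2 difference -0.27, limma adjusted p = 6e-05), while *Bsg* (basigin), its relative, did not pass with fatostatin (limma adjusted p = 0.71). *Ldhb* rose from 17.5 ± 0.325 to 24.2 ± 1.43 FPKM (0.46, limma adjusted p = 0.00011). *Txnip* rose from 29.7 ± 0.843 to 34.4 ± 0.0513 FPKM (0.21, limma adjusted p = 0.000358). The mitochondrial pyruvate carrier genes *Mpc1* and *Mpc2*, the ferritin genes *Fth1* and *Ftl1*, and the copper pump *Atp7a* passed in none of the 5 comparisons.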

How the data were processed

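RNA sequencing of 12 libraries (4 groups, 3 replicates each) was read from 1 table of FPKM values deposited by the authors, whose steps were trimming (Trim Galore), alignment with HISAT2 to the GRCm38 genome, and counting per gene (featureCounts) before scaling. The strand setting of the counting and the annotation release are not given in the sources used here. The table had 32352 lines for 32051 genes, the repeats having equal values, and 0 columns belonged to no sample. FPKM values were taken as log2(FPKM + 0.1), so fold changes on this scale understate those of low genes. All 13733 genes that averaged 0.1 FPKM or more, the members among them, were fitted in 1 model of 4 group means with limma 3.58.1 in R 4.3.3 (eBayes with trend). Two-sided p-values were corrected over all genes tested (Benjamini-Hochberg), with a threshold of 0.05 and, for the stricter call, 1.5-fold. SE and 95% confidence intervals come from this fit. The scripts were tested on simulated data with 200 changed genes.

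Reads per library were recovered from FPKM and GRCm38 exon lengths, and 98.3% to 98.4% of values came out whole within 0.02 reads. These reads served depth statements and the voom alternative, which was added after the data had been seen. Coordinates and exon overlaps come from the GRCm38 annotation.

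The members, substrate classes and lists were chosen with earlier results of these data known. Named are the members past both thresholds in any comparison, the 3 most abundant per named class, the 2 with the largest passing difference per class with EpA and with fatostatin, a fixed list of T cell transporters, any member with differing effects of EpA, and 24 related genes. Alternatives varied the pseudocount, the filter, the scaling, the trend, the samples fitted and a replicate block. Each library was also left out in turn. Replicate numbers gave no sign of pairing the libraries. Same-numbered libraries had correlations of deviations between -0.0472 and 0.0744, and other pairs between -0.0859 and 0.0492. These correlations cannot show whether libraries shared a culture or animal.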

Additional observations from a re-analysis of the deposited data

How the results depend on the processing

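None of the 202 differences of single genes that were recomputed changed direction under the alternatives run. Some printed differences that did not pass, such as those of Slc2a3 with EpA and of Bsg with fatostatin, were not recomputed. Of 375 recomputed counts, 353 stayed within 1.5 times the reported count. The members past both thresholds with EpA (2 reported) were 0 with a pseudocount of 1 FPKM, and 1 with all genes above 0 or with no trend. For both compounds against DMSO (5 reported) they were 3 with a pseudocount of 1. For both compounds against fatostatin (2 reported) they were 1 with a pseudocount of 1, with all genes above 0, or with no trend. With fatostatin, 8 members rather than 13 were higher when only the groups compared were fitted. Leaving out each library in turn gave 1 to 2 members past both thresholds with EpA, 14 to 23 lower with EpA, 1 to 3 past both thresholds for both compounds against fatostatin, and 9 to 20 lower in that comparison. The cause was not tested. Of 4235 recomputed values over 202 differences of single genes, 4022 kept their side of the threshold, 210 lost the call and 3 gained it (Slc25a1 with EpA when only the groups compared were fitted, Slc2a6 with EpA without fatostatin replicate 1, and Slc25a4 with fatostatin without fatostatin replicate 3). With the replicate block, 28 members were higher and 23 lower with EpA, 12 and 13 with fatostatin, 37 and 22 for both against DMSO, 19 and 8 for both against EpA, and 40 and 18 for both against fatostatin. The numbers gave no sign of pairing the libraries, and the block changed no count by more than 1.5 times. With voom, added after the data had been seen, 29 were higher and 27 lower with EpA and 16 and 15 with fatostatin. Depth limited Slc25a33, Slc36a3os and Slc27a6, each with under 100 reads in some library. Groups of 3 limit the precision of every value.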
